A study of Bos taurus with 2 samples.

Results

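The INSL3 window is a short CpG-rich stretch of bovine chromosome 7, assayed in the study by cloning after bisulfite treatment. It runs from 5252671 to 5253045 (UMD3.1) and holds 34 CpG sites within 374 bp. It was described here with 20 kb on each side, from 5232671 to 5273045, taken by position in both libraries. This region holds 697 of the 27203217 CpG sites listed in the series, with 397 sites in the left flank (lower coordinates) and 266 in the right flank. The study had chosen the window from these same libraries, so its methylation level is compared here without a test, and its single sites enter only a test over all sites of the series, from which nothing is read about the window.

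The libraries came from sperm of Bull1 and Bull2, a pair of monozygotic Holstein twins that the study describes as moderately different in sperm quality. The labels name no treatment, and per the methods of the study the frozen semen came from both bulls at the same age and within the same week. Each bull gave 1 library of whole-genome bisulfite sequencing (WGBS), in which unmethylated cytosines are converted and read as thymine while methylated ones stay cytosine. Without replicates, animal, semen collection and library preparation cannot be told apart in any difference given here. The files hold no expression values, so the sperm label was not checked against marker genes.

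INSL3 encodes insulin-like 3, a peptide hormone of the relaxin family that is made by Leydig cells of the testis and acts through the receptor RXFP2. It is best known for guiding the descent of the testis in the fetus, and it also serves as a marker of mature Leydig cells. Sperm themselves are not its source. In sperm most CpG sites are methylated, while CpG-rich stretches at many gene starts are not, and a level in between in a pool of cells means that some DNA molecules were methylated at that site and others were not. In the RefSeq annotation of another assembly, ARS-UCD2.0, the gene listed before INSL3 on chromosome 7 is JAK3, a kinase of cytokine signalling, and the gene after it is B3GNT3, a glycosyltransferase. Positions of that assembly were not used. The region list of the study assigned the window to the 5′-UTR, an exon and an intron of INSL3, while its text speaks of the promoter. An annotation of UMD3.1 was not used here, so the distance to the start of the gene was not checked.

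The primers with which the study amplified the window after bisulfite treatment are shown because they mark the DNA whose CpG sites are described here. Both are given 5′ to 3′ as designed for converted DNA, with capitals for the letters shared with the primers of the mass spectrometry assay of INSL3.
Forward: AGGTTTTTAGTTGGGGTAGGTAAAg
Reverse: AAAAACCAAAACATACATACAAATCC
Neither primer holds a CG. The region listed with them runs from 5252653 to 5253047 and contains the same 34 listed sites as the window.

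Over the series a CpG site had on average 20.01 reads in Bull1 and 18.4 in Bull2. Over all listed sites 74.8% of reads were methylated in Bull1 and 70.6% in Bull2, so that Bull1 was higher by 4.22 percentage points. At this locus coverage was lower. The 34 sites of the window had a mean of 5.09 reads in Bull1 and 8.24 in Bull2. No site of the window was covered by more than 9 reads in Bull1 or more than 14 in Bull2. The reads at a site come from at most as many DNA fragments, and a fragment of 200 to 300 bp spans many sites of the window and is counted at each of them. Intervals of levels are 95% intervals by the exact Clopper-Pearson method. They allow for counting error alone and are too narrow wherever reads are summed over sites.

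The window was highly methylated in the library labelled Bull1 and partly methylated in that labelled Bull2. This direction rests on the sample labels, which no value used here checks. In Bull1 145 of 173 reads were methylated, a level of 83.8% (77.5 to 89.0%). In Bull2 90 of 280 reads were methylated, a level of 32.1% (26.7 to 38.0%). Bull1 was thus higher by 51.7 points (43.3 to 58.7 by Newcombe's method). Methylation was higher in Bull1 at 33 of the 34 sites and equal at 1. Over the series 57.3% of the 23978882 sites with at least 5 reads in both libraries were higher in Bull1 and 32.6% were lower. The 34 sites of the window share fragments with their neighbours, so their common direction is not independent from site to site. In Bull1 16 sites had every read methylated. In Bull2 32 sites were below 50%, and the highest level of a site was 61.5%. The single-site intervals were wide, and those of the libraries were separate at 1 site only. This was the site at 5252783, with 6 of 6 methylated reads in Bull1 (54.1 to 100%) and 2 of 11 in Bull2 (2.28 to 51.8%).

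**Figure D1:**
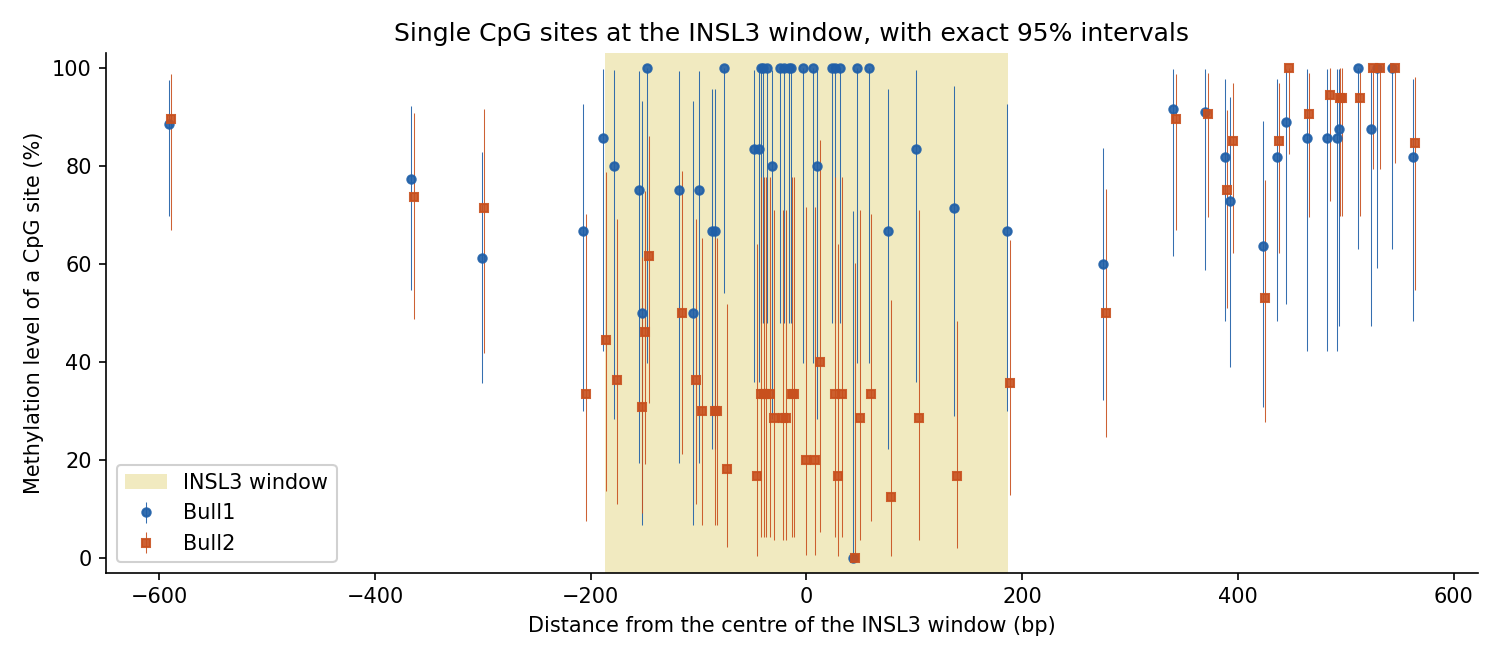
Methylation level in percent of each CpG site within 600 bp of the centre of the INSL3 window, against distance in bp, for Bull1 (circles) and Bull2 (squares), with exact 95% intervals as bars and the window shaded. Inside the window the squares sit mostly below 50% and the circles mostly above it, and the bars of nearly all sites overlap.

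The window fell into 3 segments, which were set after the values were seen. The first 11 sites, from 5252671 to 5252783, were methylated at 75.9% in Bull1 (41 of 54 reads) and 38.2% in Bull2 (47 of 123 reads). The lowest levels of Bull1 in this segment were 2 of 4 reads at 5252707 and 2 of 4 at 5252754, where Bull2 had 6 of 13 and 4 of 11. The highest level of Bull2 in the window was also here, 8 of 13 reads at 5252711, where Bull1 had 4 of 4.

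The middle segment held 16 sites within 79 bp, from 5252811 to 5252890, and differed most. There Bull1 was at 95% (76 of 80 reads, 87.7 to 98.6%) and Bull2 at 29.2% (28 of 96 reads, 20.3 to 39.3%), a difference of 65.8 points. In Bull1 12 of the 16 sites had every read methylated, at 4 to 6 reads per site. In Bull2 every site of this segment had 1 or 2 methylated reads out of 5 to 7, and 12 of the 16 had exactly 2. At 5252835, for example, 5 of 5 reads were methylated in Bull1 and 2 of 7 in Bull2. Because the counts hardly changed from site to site over a distance shorter than a read of 125 bp, the reads summed over the segment in each library come from few fragments, and the files do not record which calls lie on the same fragment.

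The last segment, 7 sites from 5252902 to 5253045, was at 71.8% in Bull1 (28 of 39 reads) and 24.6% in Bull2 (15 of 61 reads). Its first site, at 5252902, was at 0 in both libraries. It had 0 of 3 methylated reads in Bull1, which allows up to 70.8%, and 0 of 4 in Bull2, which allows up to 60.2%. The neighbour before it, at 5252890, had 5 of 5 in Bull1 and 2 of 6 in Bull2, and the neighbour after it, at 5252906, had 4 of 4 and 2 of 7. Bull2 was lowest, among sites with a methylated read, at 5252935 with 1 of 8 reads, where Bull1 had 4 of 6.

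The edges of the low stretch were then placed in each library. A running level was the share of methylated reads over 5 consecutive sites, taken in each library by itself where it had at least 10 reads there. A low stretch was a run of at least 5 sites with a running level under 50%. A running difference needed a running level in both libraries. Bull2 had a low stretch at the window, from 5252671 to 5252996, with 33 sites over 325 bp. Its lowest running level was 22.9%. Bull1 had none there. Its running level stayed at or above 66.7% over these 33 sites, and the nearest low stretch of Bull1 lay 4022 bp to the left of the window. The level of Bull1 was not flat, however. It went from 92.9% at 5252194 to 66.7% at 5252760, reached 100% at 5252843, and was at 67.4% at 5252996 and 89.2% at 5253351.

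On the left side the level of Bull2 fell toward the window, but the place of the fall is uncertain. At 5252493 the methylated reads were 17 of 22 in Bull1 and 14 of 19 in Bull2. At 5252558 they were 11 of 18 and 10 of 14. At 5252652, 19 bp before the window, they were 6 of 9 and 3 of 9. Bull1 was at 61.1% and 66.7% at the last pair of sites, while Bull2 went from 71.4% to 33.3%. The intervals of Bull2 at this pair, 41.9 to 91.6% and 7.49 to 70.1%, overlapped. Inside the window Bull2 was again at 61.5% at 5252711 and at 50% at 5252741.

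On the right side the level of Bull2 rose again between 5253045 and 5253199. At 5253045, the last site of the window, methylated reads were 6 of 9 in Bull1 and 5 of 14 in Bull2. At 5253134 they were 9 of 15 and 8 of 16. At 5253199 they were 11 of 12 and 17 of 19, and at 5253229 they were 10 of 11 and 19 of 21. A site farther on, at 5253282, was lower than its neighbours in both libraries, with 7 of 11 and 9 of 17 methylated reads. In the 500 bp beyond the window the level was 84.4% in Bull1 and 87.3% in Bull2 on the right, and 82.8% and 84.0% on the left. The intervals of both differences, -9.76 to 3.28 points on the right and -10.4 to 8.68 on the left, included 0.

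**Figure D2:**
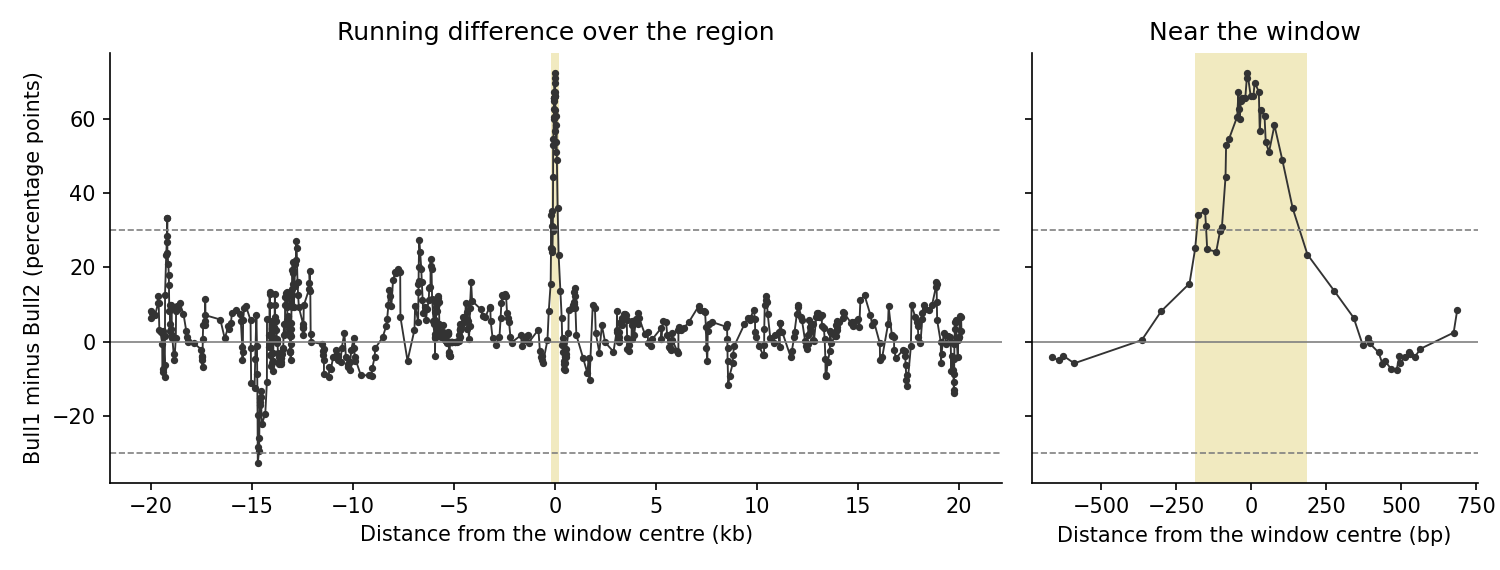
Difference of the running level over 5 CpG sites, Bull1 minus Bull2 in percentage points, against distance from the window centre in kb (left panel) and in bp (right panel), with dashed lines at 30 points either way and the window shaded. The difference rises to 72.4 points inside the window, and only 3 running levels of the flanks pass 30 points in either direction.

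Within the 40 kb examined, running differences above 30 points lay in the window, apart from 2 running levels of the left flank. The longest run of sites with a running difference above 30 points, the threshold the study used for regions, went from 5252760 to 5252996 and held 26 sites over 236 bp. A shorter run of 3 sites lay just before it, from 5252681 to 5252707, and 29 of the 34 running levels centred in the window passed 30 points. The largest running difference was 72.4 points. Above 20 points the run covered exactly the 34 sites of the window, and above 10 points it covered 36 sites over 482 bp, from 5252652 to 5253134. Over the whole series 0.316% of 26293294 running levels were higher in Bull1 by more than 30 points and 0.112% were lower. In the flanks 2 of 648 running levels (0.309%) were higher by more than 30 points and 1 (0.154%) was lower. The median running difference was 2.90 points in the flanks and 3.29 over the series, where the range from the 5th to the 95th percentile was -8.01 to 15.4 points.

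Widening the window diluted the difference within a short distance. With 50 bp added on each side the difference was 50.8 points, with 100 bp it was 48.1, with 500 bp 19.0, and with 2000 bp 15.7. With 5000 bp it came to 4.72 points. All these values include the window itself, and the last also part of a low stretch of both libraries. In the 1 kb next to the window the difference was -0.385 points on the left and 1.47 on the right. Outside the window the left flank was higher in Bull1 by 3.58 points (1.37 to 5.78), with 53.8% against 50.2%. The right flank was higher in Bull1 by 2.18 points (0.851 to 3.52), with 88.6% against 86.4%. Over all listed sites of the series Bull1 was higher by 4.22 points, so neither flank difference was above that of the series.

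**Figure D3:**
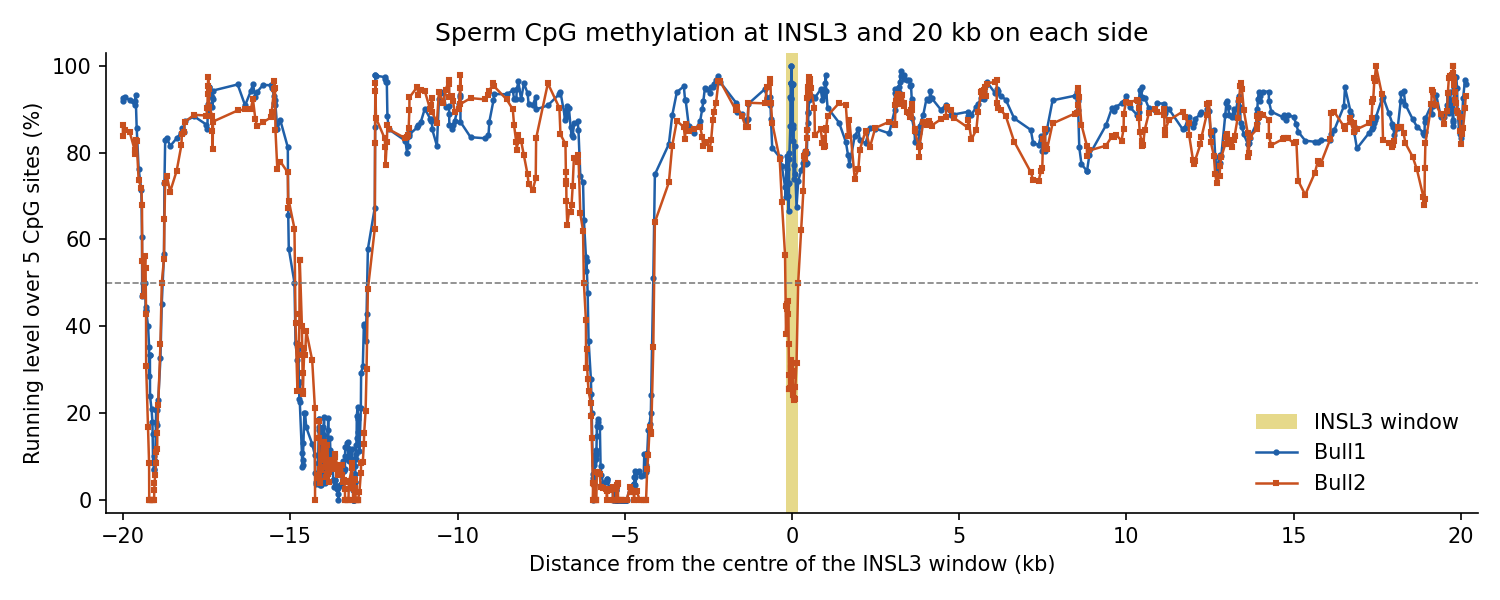
Running methylation level over 5 CpG sites in percent against distance from the centre of the INSL3 window in kb, for Bull1 (circles) and Bull2 (squares), with the window shaded and a dashed line at 50%. Both libraries fall together in 3 places of the left flank, to 6.82% or lower. At the window only Bull2 falls below 50%, to 22.9%, while Bull1 dips to 66.7%.

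The left flank carried 3 other CpG-rich low stretches, and these were shared by the twins. The nearest went from 5246698 to 5248713, or -6.16 to -4.15 kb from the centre of the window. Its 96 sites were at 9.90% in Bull1 (76 of 768 reads) and 5.38% in Bull2 (33 of 613 reads), and the running level reached 0 in both. The next went from 5238015 to 5240178, with 109 sites at 11.8% in Bull1 and 10.3% in Bull2, and again reached 0 in both. The farthest, from 5233531 to 5234015, had 24 sites at 21.4% in Bull1 and 12.6% in Bull2, with lowest running levels of 6.82% and 0. These bounds join the stretches of both libraries that lay within 200 bp of each other. In the nearest one Bull2 had too few reads for a running level between 5247752 and 5247910. The same held in the middle one between 5238599 and 5238712.

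The level of the INSL3 stretch in Bull2 was 32.0% with a lowest running level of 22.9%, while the 3 joined stretches were between 5.38% and 12.6% in Bull2. Within the middle one, however, Bull2 had separate low stretches from 5238015 to 5238132 at 35.7% and from 5238205 to 5238599 at 31.4%, over 117 and 394 bp. The joined stretches were longer, 484 to 2163 bp against 325 bp at INSL3. INSL3 was denser, with a median of 22 CpG sites within 100 bp of each site against 10 to 12. Over the series 101377 low stretches were found in Bull2 by the same rule, with a median level of 18.5% and a median of 20 sites. A level as high as that at INSL3 was found in 30.1% of them, and in 2.90% of the 36412 with at least 33 sites. A low stretch of Bull2 that overlapped none of Bull1, as at INSL3, made up 14.5% of all low stretches of Bull2, and these had a median level of 38.5%. Places where Bull1 had too few reads for a running level also counted as having no stretch. This group is therefore not limited to places methylated in Bull1. As the window was chosen for its difference, nothing follows from its place in that group.

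The largest running differences of the flanks lay in or beside the shared stretches. The 2 running levels above 30 points were at 5233657 and 5233661, inside the farthest shared stretch. Each of these sites had only 1 of 3 methylated reads in Bull1 and 0 of 3 in Bull2. The single running level below -30 points was at 5238142, near the left edge of the middle one. This site had 1 of 7 methylated reads in Bull1 and 2 of 6 in Bull2. Around it the running difference was between -32.6 and -10.8 points over 13 sites from 5238132 to 5238594, so that Bull2 was higher. Near the right edge of the same stretch Bull1 was higher, by up to 27.2 points at 4 sites from 5239976 to 5240068. At 5240057, where this was largest, methylated reads were 4 of 7 in Bull1 and 2 of 15 in Bull2. Bull1 was also higher by up to 27.4 points at 3 sites from 5246116 to 5246189, to the left of the nearest shared stretch.

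The right flank held no low stretch in either library, although the site at 5260414 was at 0 in both, with 0 of 6 and 0 of 3 methylated reads. In steps of 1 kb its levels lay between 82.0% and 92.2% in Bull1 and between 77.0% and 92.6% in Bull2, and the differences between -4.15 and 7.26 points. In the left flank the differences of such steps lay between -16.7 and 14.9 points. Of its 20 steps 5 were beyond 10 points, against 0 of 20 in the right flank, and the share over the series was not computed. The left flank had means of 10.3 reads per site in Bull1 and 9.61 in Bull2, and the right flank 18.7 and 17.1. Among the 5, the step 17 kb to the left held only 2 sites, with 27 and 30 reads. The counts of the flanks are therefore not read against each other. The highest difference of a step was 8 kb to the left of the window, outside the low stretches. Its 9 sites were at 93.3% in Bull1 (56 of 60 reads) and 78.4% in Bull2 (40 of 51 reads). The interval of this difference was 1.94 to 28.6 points. As the step was picked as the highest of all steps, nothing is read from that interval. The lowest difference, -16.7 points (-26.7 to -6.33), was in the step 15 kb to the left, picked likewise. That step covers the left edge of the middle shared stretch. Outside low stretches the left flank was at 87.8% in Bull1 and 84.9% in Bull2, a difference of 2.94 points (0.890 to 5.00). Across the 569 sites of both flanks with at least 5 reads in both libraries, Pearson's r of the site levels was 0.939. These sites share fragments with their neighbours and the contrast of low and high stretches, and in the right flank alone, where all stretches were high, r was 0.350 over 257 sites.

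Single CpG sites were then tested by a two-sided Fisher exact test over all 23978882 sites of the series with at least 5 reads in both libraries. Such a test compares the libraries and not the animals. Of the 697 sites of the region 592 were tested, and the others had fewer reads. Bull2 had no reads at 7 sites, all in the left flank, and Bull1 had reads everywhere. After Benjamini-Hochberg adjustment 0 sites of the region were called, against 82 of the series (0.000342%). At an unadjusted p of at most 0.05, 12 sites of the region passed, against 2.88% of the tested sites of the series. Of these 5 lay in the window and come from the difference by which it was chosen, so nothing is read from their number.

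In the flanks 7 of 569 tested sites passed, or 1.23%, beside the 2.88% of the series. Of these 6 were higher in Bull1, as were 2.53% of the tested sites of the series, and 1 was lower, as were 0.346%. They lay apart from each other and from the window. The smallest p was at 5268495 in the right flank, with 33 of 38 methylated reads in Bull1 and 19 of 34 in Bull2 (Fisher exact p = 0.00419, adjusted p = 1). Also higher in Bull1 were 5246189 in the left flank, with 12 of 13 against 10 of 18, and 4 more sites of the right flank. These were 5254887 with 20 of 21 against 3 of 6, 5260238 with 11 of 13 against 8 of 18, 5265881 with 31 of 31 against 16 of 19, and 5269555 with 23 of 23 against 16 of 20. The site at 5242610 was lower in Bull1, with 23 of 27 against 31 of 31. All 7 had an adjusted p of 1 (Fisher exact test, Benjamini-Hochberg).

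At its depth no site of the window could reach an adjusted call. The largest p among the 82 calls of the series was 1.70e-07. At the reads of each window site the smallest p that full methylation in Bull1 against none in Bull2 could give was 1.22e-06, so 0 of the 34 sites could have been called whatever their levels. With equal reads in both libraries, 14 reads each would have been needed.

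Coverage was uneven between the libraries at this locus. The window had 0.618 reads in Bull1 for each read in Bull2, and the 500 bp to the right had 0.570, whereas the 500 bp to the left had 1.26 and the whole series 1.09. In the first 11 sites of the window the ratio was 0.439, with a mean of 4.91 reads in Bull1 and 11.2 in Bull2. In the middle segment, where the difference was largest, it was 0.833, with 5 and 6 reads per site. The part of coverage in the difference was not tested.

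**Figure D4:**
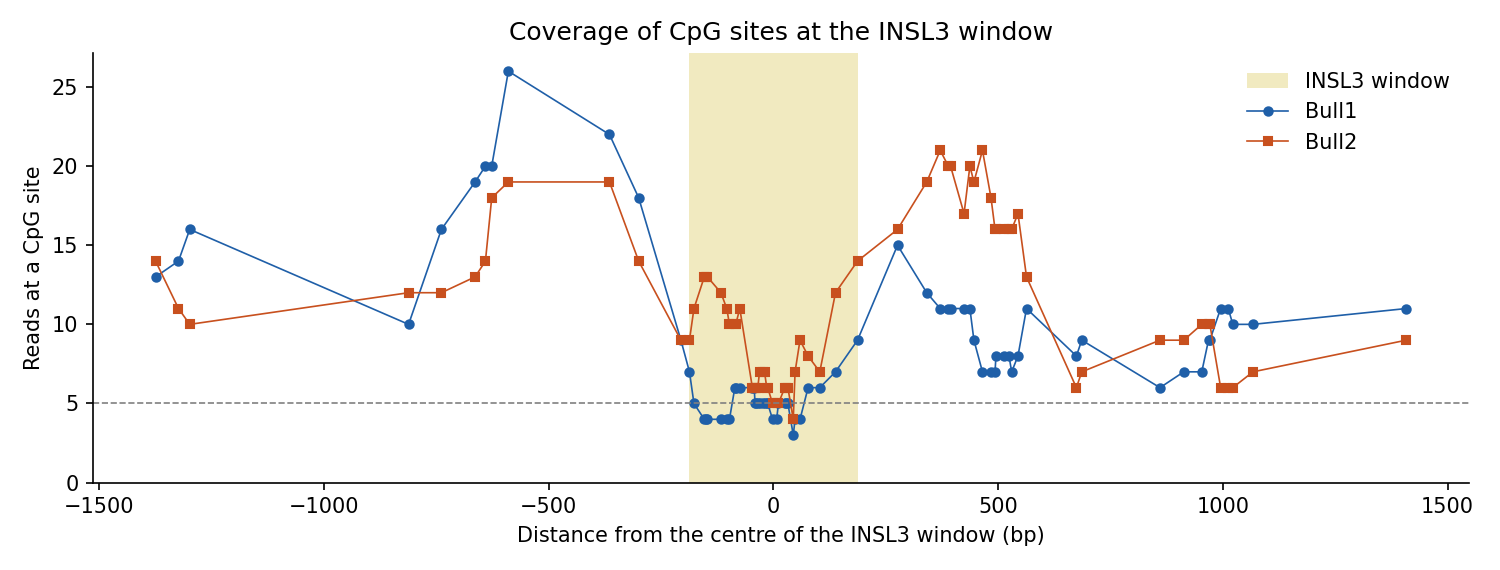
Reads at each CpG site within 1500 bp of the centre of the INSL3 window, against distance in bp, for Bull1 (circles) and Bull2 (squares), with the window shaded and a dashed line at 5 reads. Both libraries drop inside the window, to between 3 and 9 reads in Bull1 and between 4 and 14 in Bull2.

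Low coverage of CpG-dense DNA was not particular to INSL3. Sites of the series with 16 or more CpG sites within 100 bp had median coverages of 4 and 5 reads, and the median of the window was 5 in Bull1 and 7 in Bull2. For comparison with dense DNA, all chromosomes were divided into tiles of 34 consecutive CpG sites. The tiles were cut in fixed steps from the start of each chromosome. Of 62762 tiles within 600 bp, the 28997 with a mean of at least 5 reads per site in both libraries were kept. Their median ratio of reads was 0.959, and 5.13% had a ratio as low as that of the window.

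Most such tiles were either unmethylated or methylated in both twins. In Bull1 47.2% of tiles were under 10% and 25.2% at or above 80%, and in Bull2 48.3% and 24.5%. A level from 20 to 50%, as in the window of Bull2, was found in 8.33% of tiles in Bull1 and 9.35% in Bull2. The median difference of tiles was 0.0567 points. Bull1 was higher by more than 30 points in 59 tiles (0.203%), and 9 tiles differed by at least as much as the window. The window was chosen for this difference, so its rank is a description. The window was also placed where the study had found a difference, whereas the tiles were cut without regard to differences. A tile that covers only part of such a stretch is diluted by its surroundings. The number of stretches like the window is therefore not given by these counts.

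**Figure D5:**
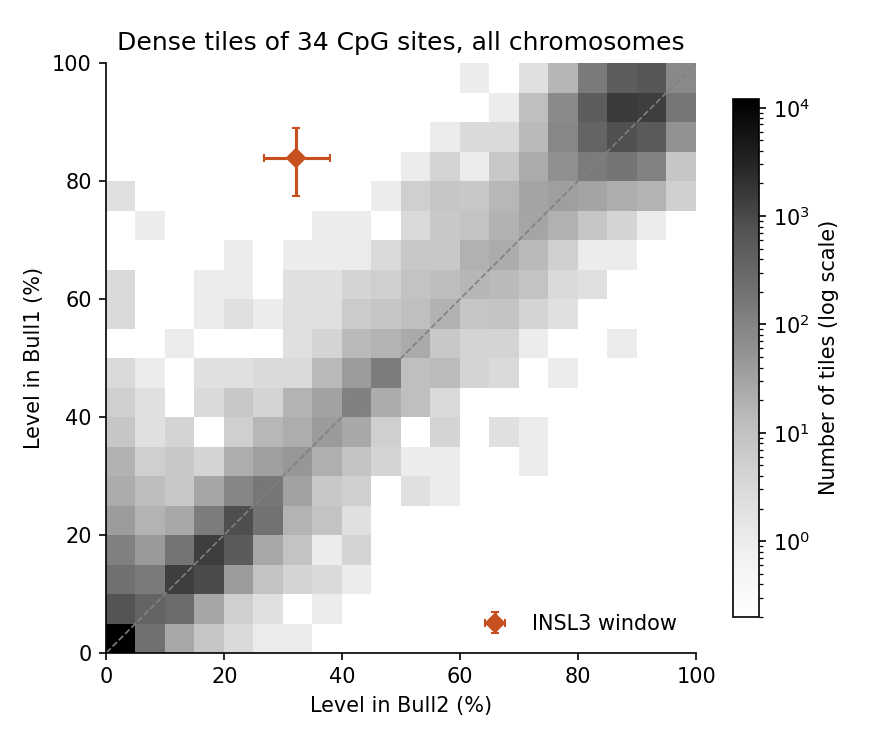
Methylation level in Bull1 against the level in Bull2, both in percent, for 28997 tiles of 34 CpG sites within 600 bp on all chromosomes, shaded by the number of tiles in bins of 5 points on a log scale, with the INSL3 window as a diamond with exact 95% intervals. The tiles lie along the diagonal with most near both ends, and the window lies far above it at 83.8% and 32.1%.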

How the data were processed

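Sperm DNA of Bull1 and Bull2 was profiled by WGBS, 1 library per bull, so no replicates could be compared. The authors filtered reads for quality, mapped them to UMD3.1 with Bismark (bowtie2, default settings) and used deduplicated reads. The deposited files give the methylation level of each CpG site as a fraction, and the counts of methylated, unmethylated and all reads as the authors obtained them, without normalization. Counts added up in all rows, and the fraction equalled their ratio within 1e-05. Whether positions start from 0 or 1, and whether strands were summed, is not stated.

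Levels were computed from counts, summed over every listed site of a stretch. The members, lists and rules were chosen with earlier results of these data known. CpG sites given in full were those of the window, the edges of stretches, and flank sites that passed the exact test without adjustment. Fisher exact tests ran over all sites with at least 5 reads in both libraries. Code was tested on simulated data. Alternatives were other coverage limits, averaging, thinning, window bounds, running windows, thresholds, a false discovery rate of 0.01 and a hidden Markov model. Python 3.11.15, numpy 2.4.6, scipy 1.17.1 and numba 0.67.0 were used.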

Additional observations from a re-analysis of the deposited data

How the results depend on the processing

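No paired analysis was possible because there is 1 library per bull. A minimum of 10 reads in both libraries left no value for the window, as 0 of its sites reach that depth. The differences of the window and of both flanks stayed positive under each alternative that gave a value. The difference of the window moved to 37.8 points when widened by 200 bp on each side, which adds methylated sites, and to 59.5 points for the last 17 sites alone, against 45.1 points for the first 17. It was 56.9 points with at least 5 reads in both libraries, 54.3 when the deeper library was thinned at each site, and 52.7 without the site at 0 in both libraries, an alternative added after seeing the data. The stretch of difference grew from 236 bp to 374 bp above 20 points and 482 bp above 10 points, by construction. The low stretch of Bull2 shrank from 325 to 118 bp under a limit of 30%, also by construction, and was 482 bp with the hidden Markov model, from 5252652 to 5253134. That model found no low stretch of Bull1 at the window either. The nearest low stretch of Bull1 was 808 bp in place of 1899 bp with 3 sites per running level. It then began at 5247905. The 3 sites just before had 2, 2 and 3 reads in Bull1, together under the 10 reads that a running level requires. Under the minimum of 10 reads in both libraries 6 sites of the region passed at an unadjusted p, against 12, among 317 tested in place of 592. That minimum by itself left out the 5 window sites among the 12 and the flank site at 5254887, with 6 reads in Bull2.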
